A study of Mus musculus with 6 samples.

Results

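The baseline state of cultured myogenic cells from mdx mice was described from the 3 vehicle libraries of a series of 6. The mdx mouse carries a mutation in the dystrophin gene and is the usual model of Duchenne muscular dystrophy. Muscle stem cells had been sorted from its muscle without Sca-1, CD45, CD31 and CD11b and with both Itgb1 and Itga7 on their surface, and were maintained, by the labels, in Ham's F10 medium with 20% fetal bovine serum and FGF2, a growth medium. The study also used a low-serum medium in its fusion assays, and the medium at harvest for RNA is not stated. The vehicle cells, labelled Control, received the solvent alone, which was DMSO in aqueous buffer in the culture assays of the study. The other 3 libraries came from the same kind of mdx cells given 10 μM PSB-KD107 (PSB-KD-1 in some labels), an agonist of the receptor Gpr18, and no comparison with them is made here. The labels give a treatment of 2 days, whereas the methods of the study describe an overnight treatment. Cells of the 3 vehicle libraries are stated to come from different mice, and the methods of the study describe male adult mdx mice on the C57BL/10 background for its treatments in vivo, without saying whether the cells came from such mice. The libraries are numbered 1, 2 and 4 in the count table and 1 to 3 in the labels, and the numbers of the table are kept below. All 3 columns were taken, and they held 39242439, 34991824 and 32663562 counts in the order 1, 2 and 4, over 47069 listed genes. Library 1 stood apart from the other two, and its values are therefore given separately wherever a result turns on it.

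Satellite cells are the stem cells of skeletal muscle. They are marked by the transcription factor Pax7 while at rest and take up Myf5 and Myod1 once they become dividing myoblasts. When myoblasts leave the cell cycle, Myog and the cyclin-dependent kinase inhibitor Cdkn1a come on, the membrane proteins Mymk and Mymx let the cells fuse, and the new myotubes fill with sarcomeres, first built with the embryonic myosin Myh3. Levels are given below per length, as FPKM (counts scaled by exon length and library size), when different genes are set side by side, and as CPM (counts scaled by library size only) when libraries are compared. Errors are SDs over the 3 libraries.

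The most abundant RNA in the vehicle cultures was H19, an imprinted noncoding RNA of fetal and regenerating muscle, at 33045 ± 5586 CPM. It was followed by Myh3, the embryonic myosin heavy chain, at 17696 ± 588 CPM. H19 alone took 2.66% to 3.65% of all counts and Myh3 took 1.71% to 1.82%. The 20 genes with the highest mean CPM together held 12.1% to 12.4% of the counts, and 8 of them encode sarcomere or calcium-handling proteins: Myh3, Acta1, Actc1, Tpm2, Mylpf, Tnnt2, Myh8 and Atp2a1. Without library 1 the number was 6, since Myh8, at 5387, 1768 and 1174 CPM in libraries 1, 2 and 4, and Atp2a1 then fell outside the first 20. The fetal growth factor Igf2 reached 6412 ± 238 CPM, and the cytoskeletal proteins Flnc, Des, Nes, Acta2 and Tmsb10 lay between 2595 CPM for Acta2 and 4964 CPM for Flnc. The remaining places were held by Eef1a1 and Eef2, which elongate proteins, the chaperone Hsp90ab1, and the glycolytic enzymes Gapdh and Aldoa.

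H19 lies at chr7:142575529-142578143 on the minus strand of GRCm38. Its exon also holds the hairpin of miR-675, at chr7:142577064-142577147, so that the most abundant RNA of these cells is also the precursor of a microRNA. The mature forms, from RefSeq on GRCm38.p6, are shown with the seed, bases 2 to 8, in capitals, because the seeds of the 5p and 3p arms differ.
mmu-miR-675-5p: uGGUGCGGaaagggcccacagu
mmu-miR-675-3p: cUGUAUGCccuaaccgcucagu
Libraries of polyadenylated RNA do not measure mature microRNAs, and their level was not analysed here. H19 stood at 10811, 14775 and 14713 FPKM in libraries 1, 2 and 4. The level of H19 was lowest in library 1, while its neighbour Igf2 stood at 1149, 1139 and 1073 FPKM and was lowest in library 4. Igf2 shares 64.5% of its exon length with other annotated genes, so that its level is uncertain.

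Ranked per length among protein-coding genes, 8 of the first 20 were again of the sarcomere list. The protein-coding genes with the highest mean FPKM were Acta1, skeletal muscle alpha-actin, at 3909 ± 728 FPKM, Mylpf, the fast regulatory light chain, at 3892 ± 447 FPKM, Actc1, the alpha-actin of heart and developing muscle, at 3558 ± 384 FPKM, and Myh3 at 2922 ± 97.1 FPKM. Each of the 4 exceeded Eef1a1, a translation factor of every cell, at 2716 ± 44.4 FPKM. The first 20 also held the troponins Tnnc1 (1536 FPKM), Tnnc2 (1359 FPKM) and Tnnt3 (1335 FPKM), the tropomyosin Tpm2 (1447 FPKM), and 2 regulators, Myog (1419.8 FPKM) and Cdkn1c (1071 FPKM). The level of Cdkn1c rested on libraries 2 and 4, at 114, 1208 and 1891 FPKM in libraries 1, 2 and 4. That of Tnnc1 rested on library 1, at 2702, 1114 and 793 FPKM, and without library 1 its mean of 954 FPKM left it outside the first 20, of which 7 were then of the sarcomere list. Tnnc2 shares 74% of its exon length with Ube2c, and counts of the pair cannot be told apart without strand. The rest were Tmsb10, mt-Co1, Rplp1, Hsp90ab1, Acta2, Igf2, Lgals1, Arl6ip5 and Aldoa, all between 1071 FPKM, the level of Cdkn1c, and 2610.4 FPKM, that of Tmsb10. In all, 10662 of 46488 annotated genes reached a mean of 1 FPKM, 4500 reached 10 FPKM and 23 reached 1000 FPKM.

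The stretches of DNA just before the annotated starts of these 4 sarcomere genes are shown because their products lead the transcriptome (RefSeq, GRCm38.p6, 5′ to 3′ on the strand of the gene). Capitals mark CAGCTG (an E-box of the kind that Myod1 and Myog bind), TATAAA and the CArG box bound by serum response factor, each searched on both strands.
Acta1, chr8:123894776-123894895, minus strand: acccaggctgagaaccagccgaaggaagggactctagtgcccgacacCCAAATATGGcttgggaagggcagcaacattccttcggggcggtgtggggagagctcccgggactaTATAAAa
Mylpf, chr7:127211488-127211607, plus strand: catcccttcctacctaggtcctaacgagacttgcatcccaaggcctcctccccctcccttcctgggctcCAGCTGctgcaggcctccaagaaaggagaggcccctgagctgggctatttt
Actc1, chr2:114052876-114052995, minus strand: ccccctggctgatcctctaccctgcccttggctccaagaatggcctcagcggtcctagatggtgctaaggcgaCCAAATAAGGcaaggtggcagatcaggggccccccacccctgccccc
Myh3, chr11:67078180-67078299, plus strand: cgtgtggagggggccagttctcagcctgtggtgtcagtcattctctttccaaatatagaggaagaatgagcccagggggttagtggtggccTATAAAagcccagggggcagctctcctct
A CArG box began 73 bases before the start of Acta1 and 47 bases before that of Actc1, CAGCTG began 51 bases before that of Mylpf, and TATAAA began 29 bases before that of Myh3 and 7 bases before that of Acta1. No motif overlapped another in these windows. Over the full 250 bases before the start, 15 of the 32 sarcomere and calcium-handling genes with a promoter in the table (46.9%) held CAGCTG, against 12.8% of all 27025 promoters. For the CArG box the shares were 4 of 32 and 1.4%, for TATAAA 8 of 32 and 13%, and for the MEF2 box 6 of 32 and 3.01%. These letters are a description and do not show that a factor is bound.

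Myog led the myogenic regulators, and Pax7 and Myf5 were the lowest of the defining markers. Myog, the regulator of terminal differentiation, stood at 1363, 1465 and 1431 FPKM in libraries 1, 2 and 4, and the 3 libraries lay close together. Myod1, which sets the myogenic fate, stood at 276, 511 and 565 FPKM, lower in library 1 than in the other two. Pax7, the marker of satellite cells, stood at 11.7, 8.46 and 10.2 FPKM. Myf5 stood at 1.71, 8.87 and 10.1 FPKM and was lower in library 1 (adjusted p = 0.0049) by edgeR's likelihood ratio test for genes that vary between libraries more than genes of like level, which called 2.56% of all genes tested. Des, the muscle intermediate filament, reached 971, 793 and 735 FPKM. The order by mean was Myog, Des, Myod1, Pax7 and Myf5. The ranges of Myog, Des and Myod1 did not overlap, and all 3 were above Pax7 and Myf5 in every library, whereas the ranges of Pax7 and Myf5 overlapped. Myog exceeded Pax7 by 116, 173 and 141 times per length, and Myod1 by 4.93, 2.87 and 2.53 times. Myf6, the late regulator Mrf4, was at 6.33, 9.96 and 6.7 FPKM. Without library 1, the mean of Myod1 was 538 FPKM and that of Myf5 9.5 FPKM, against 451 and 6.9 FPKM over all 3. RNA from whole cultures cannot tell fewer cells of a type from less RNA per cell.

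**Figure D1:**
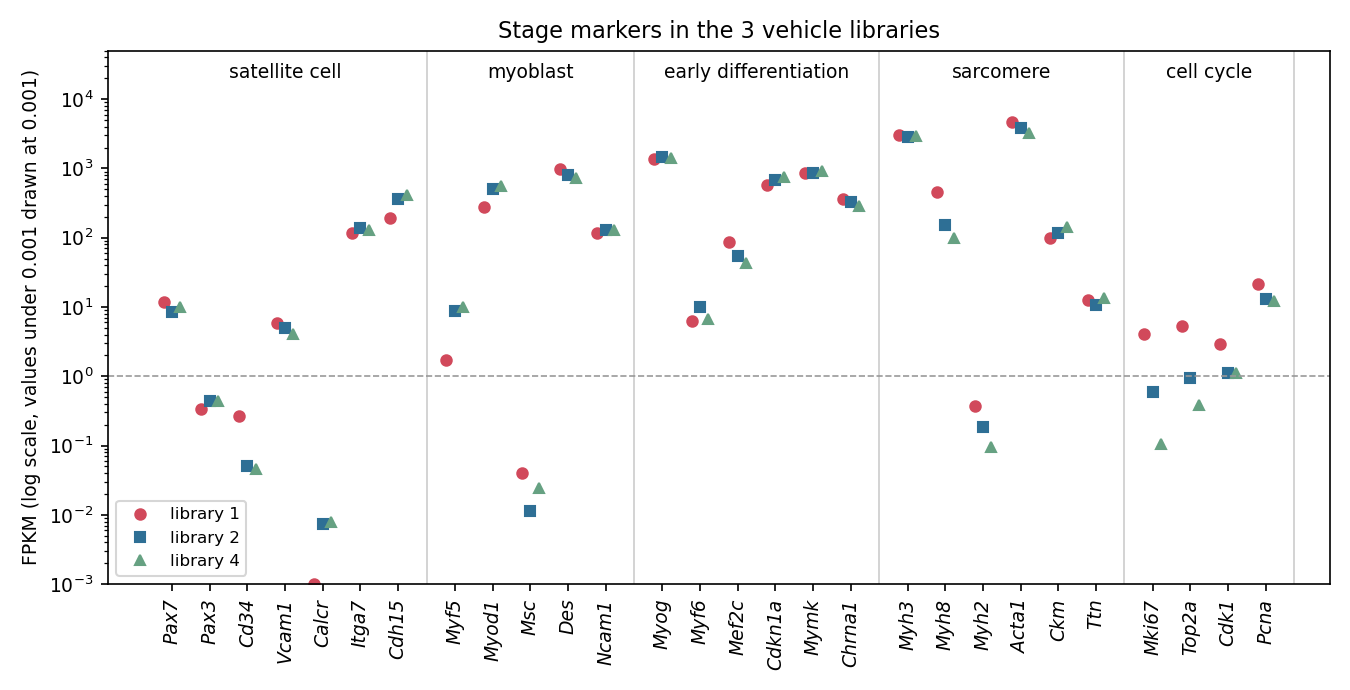
FPKM (log scale) of markers of the satellite cell, myoblast, early differentiation, sarcomere and cell cycle, with 1 symbol per vehicle library and a dashed line at 1 FPKM. Myog, Acta1 and Myh3 lie above 1000 FPKM in each library, Pax7 near 10.1 FPKM, and Mki67 at 4.08 FPKM in library 1 and 0.104 FPKM in library 4.

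The lists differed in level by stage. The median mean level was 10.7 FPKM over 21 satellite cell genes, 17 FPKM over 21 myoblast genes, 167 FPKM over 25 genes of early differentiation and fusion, and 236 FPKM over 41 genes of the sarcomere and calcium handling, beside 0.526 FPKM over all 21560 protein-coding genes. The number of members at 100 FPKM or more was 4, 5, 16 and 26 in the same order. The sarcomere list took 9.46%, 7.02% and 6.67% of all counts in libraries 1, 2 and 4. The labels call the cells muscle stem cells or satellite cells, and the study calls them myoblasts. Against those names, RNAs of differentiated, fusing muscle led in all 3 vehicle libraries, and the cells are therefore called vehicle cultures here.

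Among satellite cell genes, the highest were Cdh15, M-cadherin (325 FPKM), Dag1, dystroglycan (184 FPKM), Itgb1 (166 FPKM) and Itga7 (128 FPKM), all of which myoblasts and myotubes also use. Calcr, Chodl and Cd34 were among the lowest members. Calcr, the calcitonin receptor, had 0, 1 and 1 counts in libraries 1, 2 and 4, Chodl had 6, 0 and 0 counts, and Cd34 had 76, 13 and 11 counts. Pax3 stood at 0.333, 0.446 and 0.432 FPKM and the adhesion molecule Vcam1 at 5.91, 5.01 and 4.12 FPKM. The FGF inhibitor Spry1 stood at 26.1, 11.8 and 8.36 FPKM and the Notch target Heyl at 16.3, 7.48 and 8.35 FPKM. Of the 19 members tested, 1 was called variable by edgeR (Spry1, adjusted p = 0.0029), against 2.56% of all genes tested. An unadjusted p under 0.05 was seen for 6 of the 19, against 1000 of all 13129 genes tested. The other members, Cav1, Cxcr4, Fgfr4, Megf10, Met, Sdc3, Sdc4, Tenm4 and Tnfrsf12a, had means between 0.919 FPKM for Tenm4 and 76 FPKM for Tnfrsf12a.

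In the myoblast list, filament and adhesion genes led beside Myod1: Des, Vim (458 FPKM), Nes (412 FPKM) and Ncam1 (125 FPKM). Of the transcriptional coactivators Eya, Eya1 was at 0.624 FPKM and Eya2 at 1.56 FPKM. Of the Id proteins, which hold back E-protein partners of Myod1, Id1 stood at 20.1 FPKM, Id3 at 14.1 FPKM and Id2 at 4.82 FPKM. The E-protein genes Tcf3 (17 FPKM), Tcf12 (13.7 FPKM) and Tcf4 (8.06 FPKM) lay in a like range. The exon length used was 1160 bases for Id1 against 15529 for Tcf12 and 27382 for Tcf4, so that their order may depend on it. Msc, a repressor of myogenic differentiation in dividing myoblasts, had 4, 1 and 2 counts. Cdh2, Cdh11, Fgfr1, Musk and Six4 lay between 5.73 FPKM for Cdh11 and 46.9 FPKM for Cdh2.

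Genes of cell cycle exit and fusion were high. Cdkn1a, the inhibitor p21, stood at 578, 683 and 749 FPKM in libraries 1, 2 and 4. Mymk, the fusion protein myomaker, stood at 862, 868 and 911 FPKM, and its partner Mymx, myomixer, at 270.0, 215 and 197 FPKM. Every member of the list was above 1 FPKM, the lowest being Myf6. The embryonic acetylcholine receptor was complete, with Chrna1 at 324 FPKM, Chrng at 222 FPKM, Chrnb1 at 131 FPKM and Chrnd at 127 FPKM, and its clustering partners Rapsn (67.4 FPKM), Dok7 (42.7 FPKM) and Musk (45.8 FPKM) were present. The MEF2 factors, which act with Myog, were Mef2a at 70.1 FPKM, Mef2c at 61.7 FPKM and Mef2d at 61 FPKM. Between these and Mymk lay the thin filament proteins Lmod3 (268 FPKM) and Klhl41 (273 FPKM), the methyltransferase Smyd1 (174 FPKM) and the calcium-binding Hrc (271 FPKM). The membrane proteins Cav3 (428, 219 and 165 CPM, adjusted p = 0.042) and Dysf (606, 249.7 and 209 CPM, adjusted p = 0.006) were higher in library 1 (edgeR). Itgb1bp2, Jam2, Jam3 and Myof had means of 19.8 FPKM for Jam2 to 167 FPKM for Itgb1bp2.

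The embryonic form made up most of the myosin heavy chain RNA. Of the summed FPKM of 6 skeletal heavy chain genes, Myh3 made up 74.8%, 86.5% and 89.7% in libraries 1, 2 and 4. The perinatal Myh8 made up 11.4%, 4.62% and 3.04%, and the adult fast Myh1 made up 10.2%, 7.9% and 6.77%. The exon length used was 11772 bases for Myh8 against 6353 for Myh1 and 6057 for Myh3, so that the order of Myh8 and Myh1 may depend on it. The adult fast Myh1 stood at 409.7, 257 and 222 FPKM and Myh4 at 49.3, 14.2 and 8.03 FPKM. The slow Myh7 stood at 97.9, 16 and 7.54 FPKM, and the fast oxidative Myh2 was near 0, at 0.375, 0.188 and 0.0948 FPKM. Each of these genes but Myh3 was highest in library 1 and lowest in library 4, and Myh8 (adjusted p = 3.2e-05), Myh4 (2.5e-09) and Myh7 (9.5e-18) passed edgeR's test. Fast and slow or cardiac forms of the thin filament were present side by side, with Tnnt2 at 465 FPKM, Tnnt3 at 1335 FPKM and Tnnt1 at 396 FPKM, and with Tnni1 at 481 FPKM and Tnni2 at 105 FPKM. The exon length used was 7752 bases for Tnnt2 against 1583 for Tnnt3 and 2204 for Tnnt1, so that the order of these troponins depends on it.

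Calcium-handling genes of the sarcoplasmic reticulum were expressed. The fast calcium pump Atp2a1 made up 79.5%, 76.3% and 78.6% of Atp2a1 and Atp2a2 together, and the release channel Ryr1 stood at 50.7 FPKM, the voltage sensor Cacna1s at 54.6 FPKM and Casq2 at 363 FPKM. Casq1, the fast calsequestrin, differed between libraries, at 276, 118 and 48.8 FPKM, lowest in library 4 (adjusted p = 1.1e-06, edgeR). The giant proteins Ttn (12.3 FPKM) and Neb (55.8 FPKM) were low per length. Genes of mature fibers were lower, with myoglobin, Mb, at 144, 45.7 and 20.8 FPKM, the muscle creatine kinase Ckm at 98.2, 116 and 145 FPKM, Tcap at 37.8, 12.3 and 5.61 FPKM and Myoz1 at 9.27, 1.91 and 1.23 CPM. Ckm was highest in library 4, unlike Mb (adjusted p = 2.3e-10), Tcap (2.1e-04) and Myoz1 (0.042), which were highest in library 1 (edgeR). Of the whole list, Myh2 and Myoz1 were below 10 FPKM, and the members not yet given included Actn2 (576 FPKM), Actn3 (259.5 FPKM), Mybph (971 FPKM) and Myl1 (941 FPKM). Mybph shares 49.9% of its exon length with Adora1, so that its level is uncertain.

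Genes of the cell cycle were low. Mki67, the antigen Ki-67 of dividing cells, stood at 4.08, 0.597 and 0.104 FPKM in libraries 1, 2 and 4. Top2a, the topoisomerase of mitosis, stood at 5.29, 0.929 and 0.386 FPKM, and Cdk1 at 2.97, 1.12 and 1.12 FPKM. Library 1 was above the others for all 3. The mitosis list had a median of 1.72 FPKM over 16 genes and the replication list 2.95 FPKM over 17. Pcna, the sliding clamp of replication, was the highest replication gene at 21.2, 13 and 12.4 FPKM, and Ube2c the highest mitosis gene at 7.87, 4.67 and 3.62 FPKM, although it overlaps the abundant Tnnc2. Summed over the mitosis list, the level was 307, 66.3 and 35 CPM in libraries 1, 2 and 4. Cdkn1a exceeded Mki67 per length by 142, 1143 and 7209 times. Ccnd1, the G1 cyclin of dividing myoblasts, stood at 26.9, 9.83 and 5.41 FPKM (adjusted p = 4.8e-07, edgeR, higher in library 1), whereas Ccnd3, the D cyclin kept in myotubes, stood at 91, 74.9 and 68.6 FPKM.

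RNA of the markers that the cells were sorted for was high, and RNA of those sorted against was low or absent. The positive markers Itgb1 and Itga7 stood at 166 ± 17.6 FPKM and 128 ± 9.88 FPKM. Of the negative ones, Ptprc (CD45) had 1, 0 and 0 counts in libraries 1, 2 and 4, Pecam1 (CD31) had 14, 3 and 3 counts and Ly6a (Sca-1) had 49, 12 and 5 counts. Itgam (CD11b) had 166, 95 and 62 counts, and 68.7% of its exon length is shared with another annotated gene. Over all 71 markers of other cell types, 36 had no more than 3 counts in each library and 7 reached 1 FPKM. Those 7 were Acta2 (1182 FPKM), Scx (32.6 FPKM), Tubb3 (10.5 FPKM), Abcc9 (9.22 FPKM), Tagln (9.04 FPKM), Cebpa (2.02 FPKM) and Cd55 (1.25 FPKM). Tagln shares 67.9% of its exon length with other annotated genes, so that its level is uncertain. Other members of the same lists were at or near 0: the smooth muscle gene Cnn1 had 0, 0 and 1 counts, Kcnj8 had 0 counts in each library, and the neuronal Snap25 had 0 counts in each library. The fibroblast genes Dcn (27, 18 and 19 counts) and Pdgfra (46, 35 and 23 counts) were below 1 FPKM, and Lum, the macrophage gene Adgre1 and the hemoglobin gene Hbb-bs had 0 counts in each library.

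**Figure D2:**
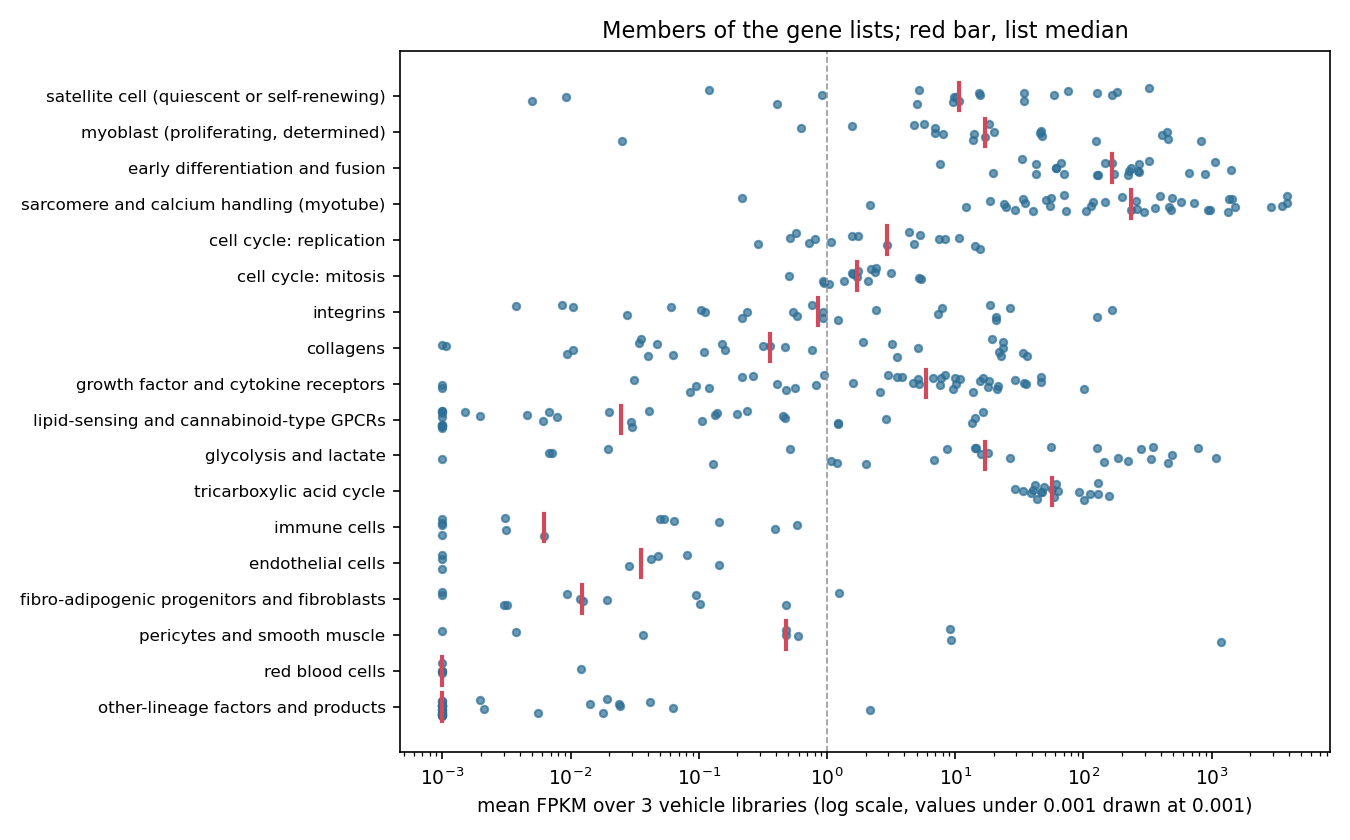
Mean FPKM (log scale) of each member of 18 gene lists over the 3 vehicle libraries, 1 point per gene, with the list median as a red bar and a dashed line at 1 FPKM. The median is 236 FPKM in the sarcomere list, 1.72 FPKM in the mitosis list and 0.00624 FPKM in the immune list.

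The dystrophin-glycoprotein complex ties the cytoskeleton to the matrix, and dystrophin is its link inside the cell. Dmd, the gene mutated in mdx, stood at 0.781, 0.837 and 0.675 FPKM in libraries 1, 2 and 4, per total exon length of all its isoforms. Utrn, its homolog utrophin, stood at 12.7, 13.5 and 14.1 FPKM, which was 16.3, 16.1 and 20.9 times Dmd. No wild-type cells were measured, so that the level of Dmd cannot be set against a normal one. The membrane parts were present, with Dag1 at 184 FPKM, the sarcoglycans Sgca at 73.5 FPKM, Sgcb at 54.4 FPKM, Sgcd at 1.2 FPKM and Sgce at 1.82 FPKM, and sarcospan, Sspn, at 59.6 FPKM. The syntrophin Sntb1 (43.9 FPKM) exceeded Sntb2 (1.49 FPKM). Nos1, the synthase that docks on the complex in fibers, had 4, 107 and 118 counts and Lama2, the laminin chain outside it, stood at 8.26 FPKM. Of the 15 members tested, 0 were called variable at an adjusted p under 0.05 by edgeR, with 2 at an unadjusted p under 0.05 (Sgce among them) and 1 called by DESeq2 (Sgce). Nos1 was not among the 15, because only genes with enough counts in all 3 libraries were tested. Over all 13129 genes tested, edgeR called 2.56%, 1000 had an unadjusted p under 0.05 and DESeq2 called 410. At such shares, 0 of 15 says little about this list.

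No RNA of the target receptor of the compound was detected at this depth. Gpr18, at chr14:121911253-121915781, had 0 counts in each vehicle library, and so had Gpr55, a related receptor, at chr1:85938318-85961007. No exon of another gene overlaps Gpr18. Over the 3 libraries together, a total of 0 allows up to 0.0281 CPM, or 0.0187 FPKM for Gpr18 and 0.00754 FPKM for Gpr55, a limit of 3 counts that covers counting error only. The study cites its earlier finding of Gpr18 in mouse myoblasts. It also reports the protein in human myoblasts derived from stem cells, where it rose during differentiation. In the same study, phosphorylation of Akt was seen in mdx myoblasts given the compound. Its qPCR measured Gpr18 RNA in muscle homogenates of mdx mice. Protein was not measured in these libraries. The cannabinoid receptor Cnr2 also had 0 counts in each library, whereas Cnr1 stood at 10.2, 12.6 and 18 FPKM. Of 32 lipid-sensing receptors, 15 had no more than 3 counts in any library and 6 reached 1 FPKM. These were the lysophosphatidic acid receptors Lpar1 (16.3 FPKM) and Lpar4 (2.91 FPKM), the sphingosine phosphate receptors S1pr1 (14.4 FPKM) and S1pr2 (1.22 FPKM), Cnr1 (13.6 FPKM) and the prostaglandin receptor Ptger4 (1.23 FPKM). The resolvin and chemerin receptors Fpr2 and Cmklr1 had 0, 0 and 1 counts and 8, 0 and 0 counts in libraries 1, 2 and 4, and Gpr35 had 8, 5 and 3 counts. Of 10 receptors tested, 0 were called variable by edgeR, with 1 at an unadjusted p under 0.05 (Lpar3) and 0 called by DESeq2. Since edgeR called 2.56% of all genes tested, 0 of 10 says little about these receptors.

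Growth factor receptors were led by Erbb3, the neuregulin receptor, at 74.4, 109.8 and 121 FPKM, above its partner Erbb2 at 42.6, 47 and 49.6 FPKM. Igf2r, which clears Igf2, stood at 46.6 FPKM, while the signalling receptors Igf1r and Insr stood at 4.72 FPKM and 5.09 FPKM. Among the FGF receptors, Fgfr4 (34.2 FPKM) and Fgfr1 (18.4 FPKM) exceeded Fgfr3 (0.946 FPKM) and Fgfr2 (0.12 FPKM). Met, the receptor that activates satellite cells, stood at 15.7 FPKM and its ligand Hgf at 0.182 FPKM. The receptors of the TGF-beta family were present, with Bmpr1a at 21.5 FPKM, Acvr2a at 21 FPKM, Tgfbr2 at 10.9 FPKM and Tgfbr1 at 9.54 FPKM, and so were Notch1 (18.1 FPKM) and Notch3 (16.4 FPKM). The cytokine subunit Il6st (35.9 FPKM) was well above Il6ra (0.217 FPKM), and Tnfrsf1a (29.3 FPKM) above Tnfrsf1b (3.85 FPKM). Kit and Flt1 had 0 counts in each library. In all, 29 of 42 receptors reached 1 FPKM.

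Of 32 secreted factors, 18 reached 1 FPKM. Igf2 led, followed by Tgfb3 (96.6 FPKM), the myostatin antagonist Fst (36.5 FPKM) and Gdf11 (19 FPKM). Mstn, myostatin, stood at 17.5, 3.35 and 1.43 FPKM and was higher in library 1 (adjusted p = 2.6e-09, edgeR). The inflammatory cytokines Tnf (0 counts in each library), Il1b (1, 3 and 0 counts) and Il6 (13, 5 and 3 counts) were at or near 0, and the chemokines Ccl2 and Cxcl1 stood at 3.06 FPKM and 2.61 FPKM. The interferon-stimulated list had a median of 0.529 FPKM, with Ifi27 (29.3 FPKM) the highest, while Isg15 had 34, 18 and 21 counts and Oas1a had 0 counts in each library. Of the stress genes, Gadd45a (212 FPKM), the endoplasmic reticulum chaperone Hspa5 (180.5 FPKM) and Atf4 (100.4 FPKM) were the highest, and the targets of Atf4, Trib3 and Chac1, stood at 1.48 FPKM and 3.88 FPKM.

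The collagen chains with the highest levels were Col4a1 and Col18a1, both of basement membranes, and the chains of collagen I were low. Of 27 collagen chains, 11 reached 1 FPKM, led by Col4a1 (61, 26.3 and 22.2 FPKM), Col18a1 (34 FPKM), Col5a1 (23.8 FPKM), Col3a1 (23.6 FPKM) and Col6a1 (22.6 FPKM). Col1a1, the main chain of fibroblasts, had 109, 4 and 3 counts and Col1a2 had 156, 135 and 132 counts. Col6a1 stood at 34.5, 16.1 and 17.3 FPKM, against 6.07, 1.73 and 1.85 FPKM for Col6a2 and 0.262, 0.0333 and 0.0334 FPKM for Col6a3, whose products assemble with it in collagen VI. Sparc, which binds collagen (179.9 FPKM), perlecan, Hspg2 (51.1 FPKM), and nidogen 2, Nid2 (51.6 FPKM), were the highest glycoproteins, and the laminin chains Lamb2 (28.3 FPKM) and Lamc1 (18.4 FPKM) exceeded Lama2, Lama5 (5.62 FPKM) and Lama4 (0.165 FPKM). The collagen chaperone Serpinh1 (260.2 FPKM), the inhibitor Timp2 (235 FPKM) and the hydroxylase subunit P4hb (139 FPKM) led the enzymes, while Mmp3 and Mmp10 had 0 counts in each library. Beside Itgb1 and Itga7, the integrins Itga6 (26.8 FPKM), Itga5 (20.9 FPKM), Itgb5 (20.9 FPKM) and Itga3 (18.7 FPKM) were above 10 FPKM. Of the 18 collagens tested, 5 were called variable and were higher in library 1, where 1.92% of all genes tested were called in that direction (edgeR): Col5a3 (adjusted p = 2.3e-19), Col6a2 (8.1e-04), Col3a1 (0.007), Col4a1 (0.011) and Col6a3 (0.024).

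Per length of annotated exons, muscle forms led most of the glycolytic isozymes. Pfkm made up 83.3%, 91.7% and 91.9% of the phosphofructokinases in libraries 1, 2 and 4, Pgam2 made up 93.3%, 93.1% and 92.2% of the mutases, and Eno3 made up 69.2%, 67.7% and 63.7% of the enolases. The length was 1739 bases for Eno3 against 5379 for Eno1, 3340 for Pfkm against 6675 for Pfkl and 13401 for Pfkp, and 840 for Pgam2 against 1982 for Pgam1. These muscle forms would therefore hold smaller shares of the counts, and the lead of Eno3 depends on the length used. Ldha made up 92.2%, 77.4% and 73.4% of Ldha and Ldhb, so that the share was highest in library 1. Ckm made up 40.3%, 50.1% and 56% of Ckm and Ckb. Aldoa (1088 FPKM), Gapdh (779 FPKM) and Tpi1 (489 FPKM) were the highest glycolytic genes, and the glucose transporter Slc2a1 (14.5 FPKM) exceeded the insulin-responsive Slc2a4 (6.89 FPKM). The liver form Pklr had 0 counts in each library. Hk2, Pfkl, Pfkp and Slc16a3 were higher in library 1 (adjusted p = 4.8e-04, 8.8e-04, 1.2e-04 and 1.9e-05, edgeR).

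All 19 genes of the tricarboxylic acid cycle were above 10 FPKM, the lowest being Fh1 (29.3 FPKM). Of these 19, 0 were called variable by edgeR, with 2 at an unadjusted p under 0.05 (Pdhb and Sucla2, both on chromosome 14) and 1 called by DESeq2 (Pdhb). Over all 13129 genes tested, edgeR called 2.56%, 1000 had an unadjusted p under 0.05 and DESeq2 called 410. At such shares, 0 of 19 says little about this list. Fatty acid oxidation was led by Acadl (161 FPKM) and Acadvl (68 FPKM), although Acadvl shares 42.9% of its exon length with Dvl2. The liver form of the entry enzyme, Cpt1a (7.69 FPKM), exceeded the muscle form, Cpt1b (0.217 FPKM), but Cpt1b shares 81.4% of its exon length with another annotated gene, and its counts are uncertain. Cd36, which takes up fatty acids, stood at 27.7, 7.06 and 2.55 FPKM (adjusted p = 1.6e-14, edgeR, higher in library 1). Among genes of lipid synthesis, Scd2 was the highest at 263, 77.4 and 69.3 FPKM, followed by Srebf2 (49.8 FPKM) and Cyp51 (42.7 FPKM), and Scd1 stood at 9.88, 1.94 and 0.974 FPKM. The desaturases Scd1, Scd2, Fads1 and Fads2, the elongase Elovl6 and the cholesterol gene Dhcr7 were among those called and were higher in library 1, with adjusted p of these genes from 1.3e-08 to 0.049 (edgeR). Of the mitochondrially encoded subunits, mt-Co1 (1522 FPKM) and mt-Cytb (1046 FPKM) were high, but mt-Co2 had only 59, 47 and 36 counts, mt-Co3 46, 49 and 29 counts and mt-Atp6 15, 18 and 13 counts. These subunits are made by every cell with mitochondria and some have near-identical copies in the nuclear genome, so that their counts are uncertain.

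Many protein-coding genes were absent at this depth. With no more than 3 counts in each of the 3 libraries, 7551 of 21560 protein-coding genes (35%) were counted as absent, and 5880 had 0 counts throughout. A floor of 3 counts equals 0.0764 to 0.0923 CPM. Sensory receptors made up many of them, with 1063 of 1065 olfactory receptors, 168 of 173 and 118 of 120 vomeronasal receptors of the Vmn1r and Vmn2r families, and 35 of 35 bitter taste receptors. Of the keratins, 42 of 49 were absent, and of the beta-defensins 41 of 42. Of 28 factors and products of other lineages, 25 were absent, including Alb, Neurod1, Nkx2-5, Pou5f1 and Gata1 at 0 counts. Gata4, known from heart and endoderm, was the exception above 1 FPKM, at 4.21, 1.17 and 1.07 FPKM.

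Hox genes, which record the position of a cell along the body and limb axes, were on by whole clusters. All 11 Hoxa genes and all 9 Hoxc genes exceeded the floor in at least 1 library, with a summed level of 128, 134 and 125 CPM for Hoxa and 100.1, 98.4 and 95.2 CPM for Hoxc in libraries 1, 2 and 4. All 10 Hoxb genes had 0 counts in every library. Of 9 Hoxd genes, 8 were at or under the floor, and the other one, Hoxd8, had 3, 4 and 1 counts. The highest members were Hoxc10 (15.9 FPKM), Hoxa7 (13.1 FPKM) and Hoxa10 (9.38 FPKM), and among the distal paralogs stood Hoxa11 at 5.19 FPKM, Hoxa13 at 2.23 FPKM, Hoxc11 at 5.96 FPKM and Hoxc13 at 4.24 FPKM. Hoxc8 differed between libraries, with 33, 456 and 520 counts (adjusted p = 1.7e-05, edgeR, lower in library 1).

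**Figure D3:**
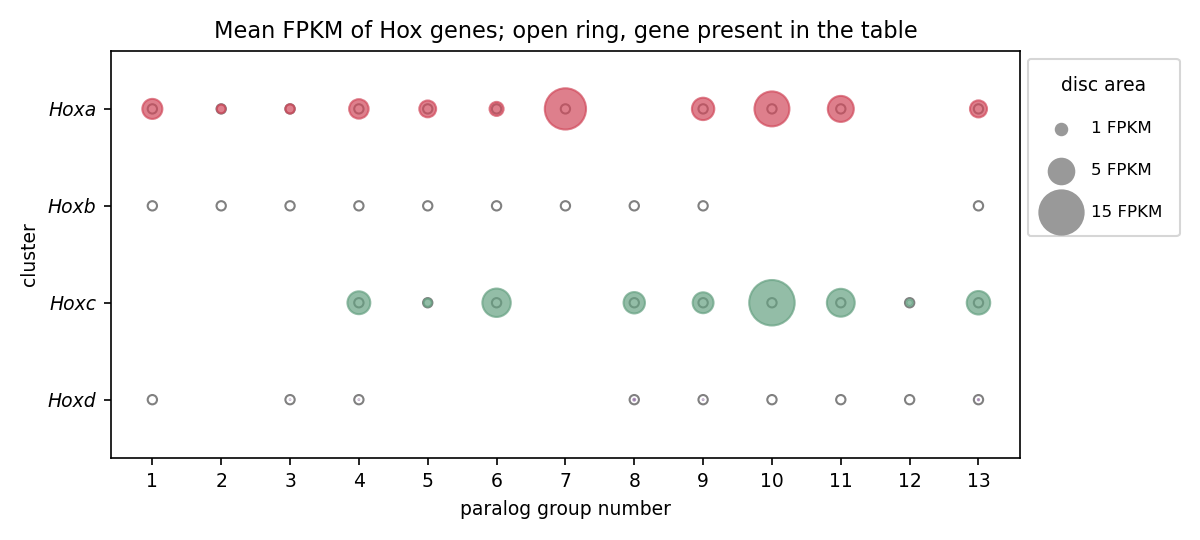
Mean FPKM of each Hox gene over the 3 vehicle libraries, by cluster (rows) and paralog group number (columns). Disc area is proportional to FPKM and an open ring marks each gene that the table lists. Discs fill the Hoxa and Hoxc rows, while all 10 Hoxb genes are at 0 counts.

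Among other position factors, some were absent and some differed between libraries. The forelimb factor Tbx5 and the hindlimb factor Pitx1 had 0 counts in each library. Tbx15 stood at 83.9, 76.1 and 70.4 FPKM in libraries 1, 2 and 4, and the limb muscle precursor gene Lbx1 at 4.58, 25.7 and 27.1 FPKM, lower in library 1 (adjusted p = 4.7e-08, edgeR). Pitx3 stood at 13.3, 18.4 and 19.1 FPKM. Tbx4 had 216, 27 and 7 counts and Tbx3 had 4, 179 and 181 counts, so that library 1 was apart in opposite directions. Neither was tested, having too few counts in at least 1 library.

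Library 1 stood apart from libraries 2 and 4. The median absolute difference between libraries, on the log2(CPM + 0.5) scale over 13129 tested genes, was 0.25 between libraries 1 and 2, 0.29 between 1 and 4, and 0.10 between 2 and 4. At least a 2-fold difference was seen for 936 genes between 1 and 2, 1302 between 1 and 4 and 80 between 2 and 4. Libraries 2 and 4 still differed by more than counting error for 3373 genes (chi-square of their counts, adjusted p under 0.05), so that they are not copies of 1 library. This does not tell separate cultures from separate preparations of 1 culture. The biological coefficient of variation estimated by edgeR over the 3 libraries was 27%. To find genes that vary more than others of like level, each gene with enough counts in all 3 libraries was tested against the trended dispersion with edgeR's likelihood ratio test. At an adjusted p under 0.05, 336 genes (2.56%) were called, and library 1 was the one apart in 327 of them. It was higher for 252 genes (1.92% of those tested) and lower for 75 (0.571%). Against counting error alone, 9512 genes (72.5%) were called. The call rests on the library set: 126 genes were called without library 1, 135 without library 2 and 99 without library 4.

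The largest spreads among genes at a mean of 10 CPM or more were led by Xist, Slc24a3, Rnf130, Dpep1 and Mki67. Xist, which silences an X chromosome in female cells, stood at 6.44, 339 and 433 CPM in libraries 1, 2 and 4 (adjusted p = 5.7e-31, edgeR). The Y-linked genes Ddx3y, Eif2s3y, Kdm5d and Uty had 0 to 3 counts in all 3 libraries, so that library 1 was low in Xist and in Y-linked RNA alike, and libraries 2 and 4 held Xist with next to no Y-linked RNA. The methods of the study describe male mice for treatment in vivo, and the sex of the mice behind these cells is not stated. Slc24a3, a sodium, potassium and calcium exchanger, stood at 1.83, 75.6 and 102 CPM (8.4e-31), and the potassium channel Kcnj2, which is turned on as myoblasts differentiate, at 2.44, 47.5 and 47.7 CPM (8.4e-17). Hspb8, a small heat shock protein of muscle, stood at 36.6, 648 and 573 CPM (3.7e-17). Rnf130, Syt13, Renbp, Zic1, Zdbf2 and the pseudogene Gm10036 shared the direction, low in library 1, with means from 12.3 CPM for Rnf130 to 98.1 CPM for Zdbf2. Dpep1, Spp1 (osteopontin), Frem2, Col5a3 and Mki67 were high in library 1, Spp1 being the most abundant at 410.1, 74 and 25.8 CPM (3.5e-20).

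**Figure D4:**
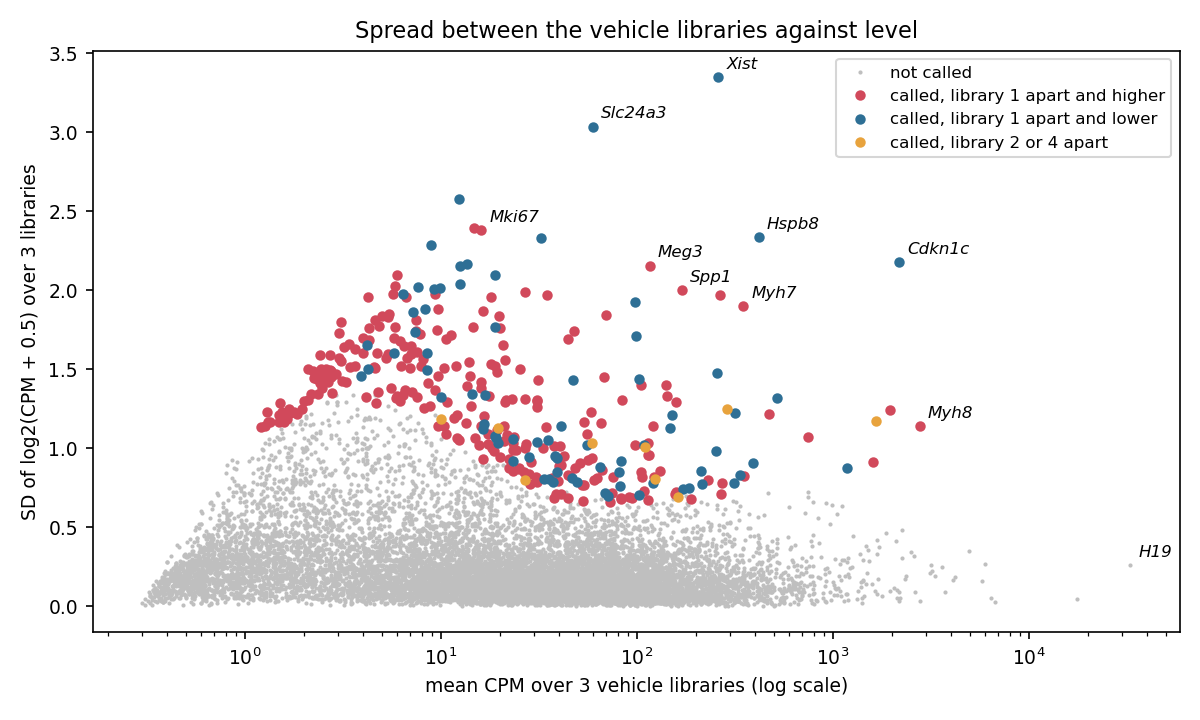
SD of log2(CPM + 0.5) over the 3 vehicle libraries against mean CPM (log scale) for the tested genes, with genes called variable by edgeR in color by the library that stands apart. Of 336 called genes, 252 are higher and 75 lower in library 1, and Xist has the largest spread.

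Imprinted genes were among the most variable. Cdkn1c, the inhibitor p57, stood at 232, 2463 and 3856 CPM in libraries 1, 2 and 4 (adjusted p = 6.0e-14, edgeR). The maternally expressed noncoding RNAs of the Dlk1 locus on chromosome 12 were higher in library 1, with Meg3 at 298, 34.2 and 16.5 CPM (1.7e-26), Rian at 651, 101 and 44.9 CPM (2.1e-19) and Mirg at 45.8, 5.67 and 3.01 CPM (3.3e-11). Dlk1 itself had 6, 9 and 19 counts. Peg10 was also higher in library 1, at 957, 259 and 197 CPM (4.8e-07). In all, 5 of 17 imprinted genes tested were called, against 2.56% of all genes tested. Meg3, Rian and Mirg are among the 5 and lie at the same locus. These calls are therefore not independent, and the 2 shares cannot be compared gene by gene. H19, Igf2, Mest, Gnas and Peg3, at 124 FPKM to 13433 FPKM, were not called.

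Called genes were unevenly spread over the lists. Of the mitosis list, 11 of 15 tested genes were called, all higher in library 1, with a median log2 difference of 2.74 between library 1 and the mean of libraries 2 and 4. The same difference was 1.04 for replication (2 of 16 called, Mcm3 and Rrm2), 1.05 for collagens, 0.85 for cholesterol and fatty acid synthesis (7 of 28), 0.59 for the sarcomere (10 of 41) and 0.51 for glycolysis (4 of 23), beside -0.000746 over all genes tested, where 2.56% were called. Of the 10 sarcomere genes called, library 1 was the one apart and higher for 9, and library 4 was apart and lower for Casq1. Of all 41, 36 were highest in library 1, so that RNA of mitosis and of most sarcomere genes was higher there. In early differentiation and fusion the difference was -0.01 (3 of 25, namely Cdkn1c, Cav3 and Dysf), and in the myoblast list -0.12 (1 of 20, Myf5). The summed level of all markers of other cell types, most of it Acta2, was 2295, 2893 and 3254 CPM in libraries 1, 2 and 4. Some lists had their highest sum in library 1, with 6.21, 1.59 and 1.51 CPM for endothelial, 5.42, 3.59 and 2.49 CPM for immune, 10.8, 5.38 and 3.63 CPM for adipocyte and 97.8, 59.1 and 44.5 CPM for tenocyte markers. Others did not, with 8.66, 9.51 and 7.23 CPM for fibro-adipogenic and fibroblast, 20.7, 24.8 and 23 CPM for Schwann cell and neuron, and 0.306, 0.94 and 0.923 CPM for epithelial markers. Of the 18 markers tested, 12 were highest in library 1, against 5776 of all 13129 genes tested. None of the 18 markers was called variable by edgeR or DESeq2, and 5 had an unadjusted p under 0.05 (edgeR). Over all 13129 genes tested, edgeR called 2.56%, 1000 had an unadjusted p under 0.05 and DESeq2 called 410. At such shares, 0 of 18 says little about these markers. Their part in the differences of library 1 was not tested.

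Genes of chromosome 14 were shifted together in library 1. Over 272 genes of this chromosome at a mean of 10 CPM or more, the median log2 difference between library 1 and the mean of libraries 2 and 4 was 0.74, a 1.67-fold higher level, with quartiles of 0.56 and 0.97. Library 1 was the highest of the 3 for 266 of these genes (97.8%), against 36.8% of 8193 genes on the other autosomes. The medians of the other 18 autosomes lay between -0.10 and -0.03. Between libraries 2 and 4, the median on chromosome 14 was 0.08. In windows of 20 Mb along the chromosome, the median difference of library 1 was 0.72 to 0.85 in the 3 windows of 62 to 86 genes, and 0.56 to 0.81 in the 4 windows of 5 to 19 genes. The chromosome holds 11 genes of the lists above at this level (among them Bmp1, Bmpr1a, Fdft1, Mmp14, Myh7, Nid2, Pdhb, Rb1, Sucla2 and Tnnc1), and all 11 were highest in library 1. Pdhb stood at 250.1, 129 and 122 CPM, Sucla2 at 229, 120.4 and 115 CPM and Rb1 at 285, 222 and 244 CPM. Myh7 (3.15) and Tnnc1 (1.52) exceeded the median of the chromosome. Of 405 genes tested there, 31 (7.65%) were called variable, against 2.56% of all genes. Gpr18 lies on this chromosome and had 0 counts in library 1 as in the others. The comparison by chromosome was chosen after the data were seen, and the number of copies of chromosome 14 in these cells was not measured.

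**Figure D5:**
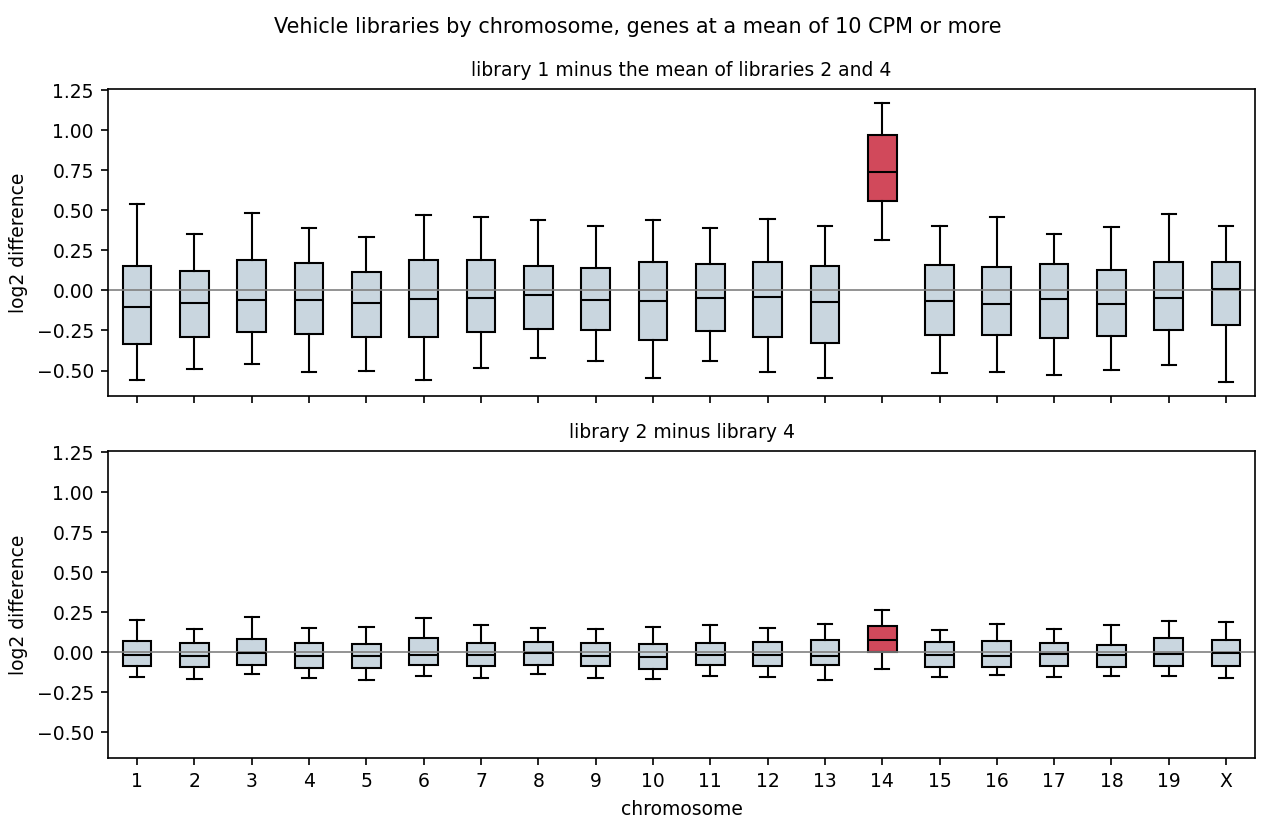
Log2 differences between vehicle libraries by chromosome, for genes at a mean of 10 CPM or more. Boxes span the quartiles with the median as a line, whiskers reach the 10th and 90th percentiles, and chromosome 14 is red. In the upper panel, library 1 against the mean of libraries 2 and 4, the median of chromosome 14 is 0.74. In the lower panel, library 2 against library 4, it is 0.08.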

How the data were processed

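RNA of the vehicle cultures was enriched for polyadenylated transcripts with a directional kit and sequenced in paired-end mode by the authors, who aligned the reads to the mouse genome (mm10) with STAR and deposited raw counts per gene, with no normalization. The counting program, its annotation and its use of strand are not given in the sources used here, which leaves genes that overlap, or that have close copies elsewhere, with uncertain levels. The columns of the libraries numbered 1 and 2 match sample records of the same number, and library 4 was assigned to the vehicle group only.

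Names, exon lengths and coordinates came from GENCODE M21 (GRCm38), which has 46488 of the 47069 genes and 99.96% of the counts. CPM and FPKM (union of exons as length) used TMM factors from edgeR 4.0.16 over the 3 vehicle libraries, in R 4.3.3, with tables made in Python 3.11.15 and pandas 2.3.3. Genes with at most 3 counts in each library were called absent. Variation between libraries was tested after filterByExpr (counts required in all 3 libraries) with edgeR's likelihood ratio test at the trended dispersion, 1 level per library, with Benjamini-Hochberg adjustment. These p-values rest on 3 libraries and single out genes that spread more than genes of like level. The main alternatives were RLE factors, the longest transcript as length, a common dispersion, counting error only, no filter, DESeq2 1.42.0 with its fitted trend, other pseudocounts, and each library left out. 

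The genes named were the markers Myod1, Myf5, Pax7, Des and Myog, Gpr18 and Gpr55, the members of the stage lists, the 20 genes highest in mean CPM and in mean FPKM (protein-coding, 200 bases or longer), the leading and the absent members of each list, the sort markers, and the 20 genes of largest SD of log2(CPM + 0.5) at a mean of 10 CPM. Others, such as genes called within a list, were chosen after their values were seen. The 35 lists, written from general knowledge, and all members were chosen with earlier results of these data known. The comparison by chromosome was added after the data were seen. No count column was left without a group. Some genes of the lists are not reported here by name.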

Additional observations from a re-analysis of the deposited data

Results flagged for a closer look

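The chromosome 14 values were also computed within the PSB-KD107 group, which enters no comparison of the report, as log2(CPM + 0.5) over the same genes. Library 1 of that group exceeded its library 2 on chromosome 14 by a median of 0.83, against -0.06 to 0.01 on the other autosomes. Library 4 exceeded library 2 there by 0.72 and was shifted the other way on chromosome 6, by -0.61, with medians of -0.14 to -0.03 on the other 17 autosomes. In the vehicle group, library 4 minus library 2 had medians of -0.08 to 0.03 over all autosomes. The libraries numbered 1 of both groups were thus shifted on chromosome 14, while of those numbered 4 the PSB-KD107 library was shifted and the vehicle library was not. These values were flagged as a signal in libraries outside the comparisons of the report, and their cause was not tested.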

How the results depend on the processing

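The count of variable genes moved most. It was 336 at the trended dispersion, 9512 against counting error only, which asks a wider question, and 99 to 135 with each library left out, where fewer samples remained: 126 without library 1, of which 73 were among the 336. RLE factors, a common dispersion, no filter, DESeq2's fitted trend and the removal of chromosome 14 gave 305 to 475 genes, of which DESeq2 shared 314 of its 410 with the main test, no filter 269 of 373 and the common dispersion 248 of 475. The number of genes at 1 FPKM (10499 to 10779 without each library), the share of the 20 most abundant genes (12.3% to 12.4%), the count of absent genes (7647 to 7972) and the chromosome 14 median (0.71 to 0.78) moved little. Of 30 alternative levels of Myod1, Myf5, Pax7, Des and Myog, 29 stayed within 1 SD, and the exception was Des at 1033 FPKM with the longest transcript as length. The ranking of variable genes kept 19 and 18 of 20 genes at pseudocounts of 0.1 and 2 CPM. No paired analysis was possible because only the vehicle group was analysed, in which each library number occurs once.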
